A study of Mus musculus with 8 samples.

Results

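The histone genes were followed in mouse leukaemia stem cells labelled as lacking the kinase gene Pik3ca or as wild type. A gene was a histone gene if its symbol in the array annotation began with a histone prefix (Hist1h to Hist4h, H1f, H2a, H2b, H3f, H3c or H4c), which took 84 genes, each with 1 row, out of 19505 named genes. Of these, 55 belong to the replication-dependent clusters, by an older RefSeq name beginning Hist1h to Hist4h, and the other 29 are variants. Arrays measured GFP+ GMPs, the granulocyte-macrophage progenitor fraction that holds the leukaemia stem cells, taken by sorting from bone marrow of recipients carrying MLL-AF9 leukaemia, a model in which a fusion oncogene makes myeloid progenitors self-renew. The 3 KO arrays held Pik3ca-/- cells and the 5 WT arrays held wild-type cells. All 8 arrays share MLL-AF9, GFP and passage through a recipient. How Pik3ca was deleted, the age of the mice and whether each array is a separate animal are not stated in the labels. The p-values therefore cover only sample-to-sample spread, part of which may be technical.

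Histones package DNA into nucleosomes, each an octamer of H2A, H2B, H3 and H4, with H1 linker histones bound between them. The replication-dependent genes lie in clusters, are transcribed in S phase when new chromatin is assembled, and give mRNAs that end in a stem-loop in place of a poly(A) tail. Variant histones are mostly made through the whole cell cycle from polyadenylated mRNAs. They replace the canonical proteins at chosen sites, as H2A.Z and H3.3 do at active promoters. Rapidly cycling progenitors such as GMPs make canonical histone mRNA in bulk, and p110-alpha, the PI3K catalytic subunit that Pik3ca encodes, lies upstream of AKT and of growth-factor control of S phase entry. The labels do not say whether labelling was primed on poly(A) tails, which would bear on how well tail-less mRNAs were read.

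Proximal promoters are shown for the 3 replication-dependent genes with the highest KO minus WT difference, for the replication-dependent gene that varied most among WT arrays, and for the variant with the highest difference. Each is the 120 bases before the RefSeq gene start, read 5′ to 3′ on the gene's strand (GRCm38.p6). Capitals mark the motifs searched on both strands: the CCAAT box (CCAAT or ATTGG), the TATA box (TATAAA or TTTATA), the octamer known from H2B promoters (ATTTGCAT or ATGCAAAT) and a motif known from H1 promoters (AAACACA or TGTGTTT).
H1f1, chr13:23763548-23763667, plus strand: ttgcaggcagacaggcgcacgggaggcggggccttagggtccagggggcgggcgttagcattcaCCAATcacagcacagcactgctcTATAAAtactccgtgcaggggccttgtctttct
H1f5, chr13:21780626-21780745, minus strand: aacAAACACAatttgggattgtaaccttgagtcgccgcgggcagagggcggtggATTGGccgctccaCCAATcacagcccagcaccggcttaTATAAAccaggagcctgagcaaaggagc
H2bc8, chr13:23571280-23571399, plus strand: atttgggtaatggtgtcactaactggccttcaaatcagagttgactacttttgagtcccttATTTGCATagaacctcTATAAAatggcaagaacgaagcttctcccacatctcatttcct
H2ac21, chr3:96219765-96219884, plus strand: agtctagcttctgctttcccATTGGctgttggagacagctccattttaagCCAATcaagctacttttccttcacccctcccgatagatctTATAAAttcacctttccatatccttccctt
H3f3a, chr1:180813606-180813725, minus strand: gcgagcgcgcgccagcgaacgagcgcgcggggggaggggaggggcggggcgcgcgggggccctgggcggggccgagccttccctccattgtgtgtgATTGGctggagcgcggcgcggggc

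The TATA box began 33 bases before the start in H1f1, 28 bases in H1f5, 43 bases in H2bc8 and 30 bases in H2ac21, and the variant H3f3a had none in this window. In the 250 bases before the start, CCAAT was found in 38 of the 47 tested replication-dependent genes with a promoter in the table (80.9%) and in 33.8% of all 32851 promoters. It was in all 5 somatic variant promoters too, and in only 3 of 10 H4 promoters. TATAAA was found in 23 of the 47 (48.9%), against 12.4% of all promoters, and the octamer in 11 of the 47 (23.4%), against 1.60%. AAACACA was found in 6 of the 47 (12.8%), against 6.25% of all promoters, and in 3 of the 4 H1 promoters. TATAAA, the octamer and AAACACA were each found in 1 of the 5 somatic variant promoters (20%). The octamer was in 6 of 13 H2A and 5 of 12 H2B promoters and in 0 of the H1, H3 and H4 promoters, and neighbouring H2A and H2B genes that face away from each other can share these bases. A match is a description of the letters and not of a bound site.

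All values are the deposited log2 signals, so 1 unit is a 2-fold step, if the values are log2 as their range of 1.89 to 18.6 implies. A gene entered the test if its row exceeded the array median on at least 3 arrays, which kept 9920 genes. All 13 listed GMP and primary granule markers lay above the array median on all 8 arrays. So did 8 of the 9 monocyte markers named in the table and 8 of the 9 neutrophil markers. The mean level of the neutrophil markers was 13.28 to 14.86 in KO and 13.76 to 14.58 in WT. For the GMP markers it was 13.94 to 14.31 and 14.10 to 14.45, so these levels do not single out GMPs. Pik3ca itself was 8.73, 9.31 and 9.40 in KO and 9.48, 9.57, 8.41, 9.51 and 9.58 in WT, a difference of -0.16 (exact permutation test, two-sided p = 0.661). WT array 3 lay below all 3 KO arrays for this gene, which goes against its label. Without it all KO arrays lay below all WT arrays, with a difference of -0.39 and an exact permutation p of 0.0286, the lowest possible with 35 splits, and without KO array 1 the difference was 0.042. Probes outside the deleted part would not report its loss, and where the deletion lies is not stated, so these values do not settle the genotype labels. WT array 3 stood apart: it held the lowest of the 8 values for 36.5% of the 9920 genes and the highest for 25%. Values without it are given below where leaving it out moved a difference by more than 1.5 times or turned it. WT array 3 stands throughout for the array labelled as WT replicate 3.

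None of the histone genes differed between KO and WT by a margin that passed the test. Of the 84 members, 63 were bright enough to test, 51 of 55 replication-dependent genes and 12 of 29 variants. At an adjusted p under 0.05 (limma, Benjamini-Hochberg over all tested genes), 0 members and 0 of the 9920 genes (0%) were called. At an unadjusted limma p under 0.05 there was 1 member of the 63, H1f1, beside 2.84% of all genes. Separation of every KO array from every WT array was seen for 1 member, again H1f1, beside 3.09% of all genes. Without WT array 3, 0 members passed, 2 had an unadjusted limma p under 0.05 (H1f1 and H2bc21) beside 4.68% of all genes, and 1 did not overlap beside 5.55%. The median standard error of a member's difference was 0.24, and 0.19 without WT array 3.

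The 21 members left out by the filter averaged between 2.94 and 5.20 in WT, where array medians ran from 5.26 to 5.51. They include the variant linker gene H1f10, 3 linker genes known mainly from germ cells (H1f6, H1f7 and H1f8), the testis H2B gene H2bc1, the cluster genes H2bu2 and H3c1, and 14 further variants of the H2ab, H2al, H2ap, H2bfm and H2bl types. Over all 84 members, dim rows included, the replication-dependent median difference was 0.18 (48 above 0, 7 below) and the variant median was -0.03 (10 above 0, 19 below).

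Near-identical coding sequences limit what a row says of its gene. H3c14 and H3c15 had the same value on every array, as did H2al1a and H2al1f, and H2al1c and H2al1i, so each of these pairs is 1 measurement under 2 names. H2ac11 and H2ac12 differed by at most 0.08 log2 units on any array, and H2ac12 and H2ac24 by at most 0.07. Signals of canonical H2A, H2B, H3 and H4 genes may be shared between copies, and differences between copies of 1 family are uncertain. Also, 17 of the 51 tested replication-dependent genes averaged above 16 in WT, near the top of the scale, where array signals can flatten.

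The measured differences of the replication-dependent genes were mostly small, and the size of their common shift rested on 1 WT array. Their median KO minus WT difference was 0.21 (quartiles 0.11 and 0.30), against 0.04 for all tested genes, with 45 of 51 above 0 (88.2%) where 56% of all genes were. Without WT array 3 the median was 0.04, against 0.00 for all genes, with 34 of 51 above 0 where 50.1% of all genes were. In 47 of the 51 the difference was smaller than 0.5 log2 units, and in 49 without WT array 3. All tested genes had quartiles of -0.16 and 0.26, so differences under 0.5 were common in general. These counts describe a list whose members may share probes and promoters, and they carry no test. In bulk arrays, a different number of cells in S phase and a different amount of histone mRNA per cell cannot be told apart.

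Per array, the median deviation of these 51 genes from their own means was 0.24, 0.06 and 0.09 in KO arrays 1 to 3 and 0.18, 0.27, -0.51, -0.19 and -0.02 in WT arrays 1 to 5. The KO arrays thus lay inside the span of the WT arrays, with WT array 2 above all of them and WT array 3 far below. WT array 3 held the lowest of the 8 values for 37 of the 51 genes (72.5%), where it did so for 36.5% of all genes. Against the mean of WT arrays 1, 2, 4 and 5 it was more than 1 log2 unit lower for 11 of them and more than 1 unit higher for 1, H2bc21. The median SD among the WT arrays was 0.35 for the replication-dependent genes and 0.22 without WT array 3, beside 0.45 and 0.28 for all tested genes.

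**Figure D1:**
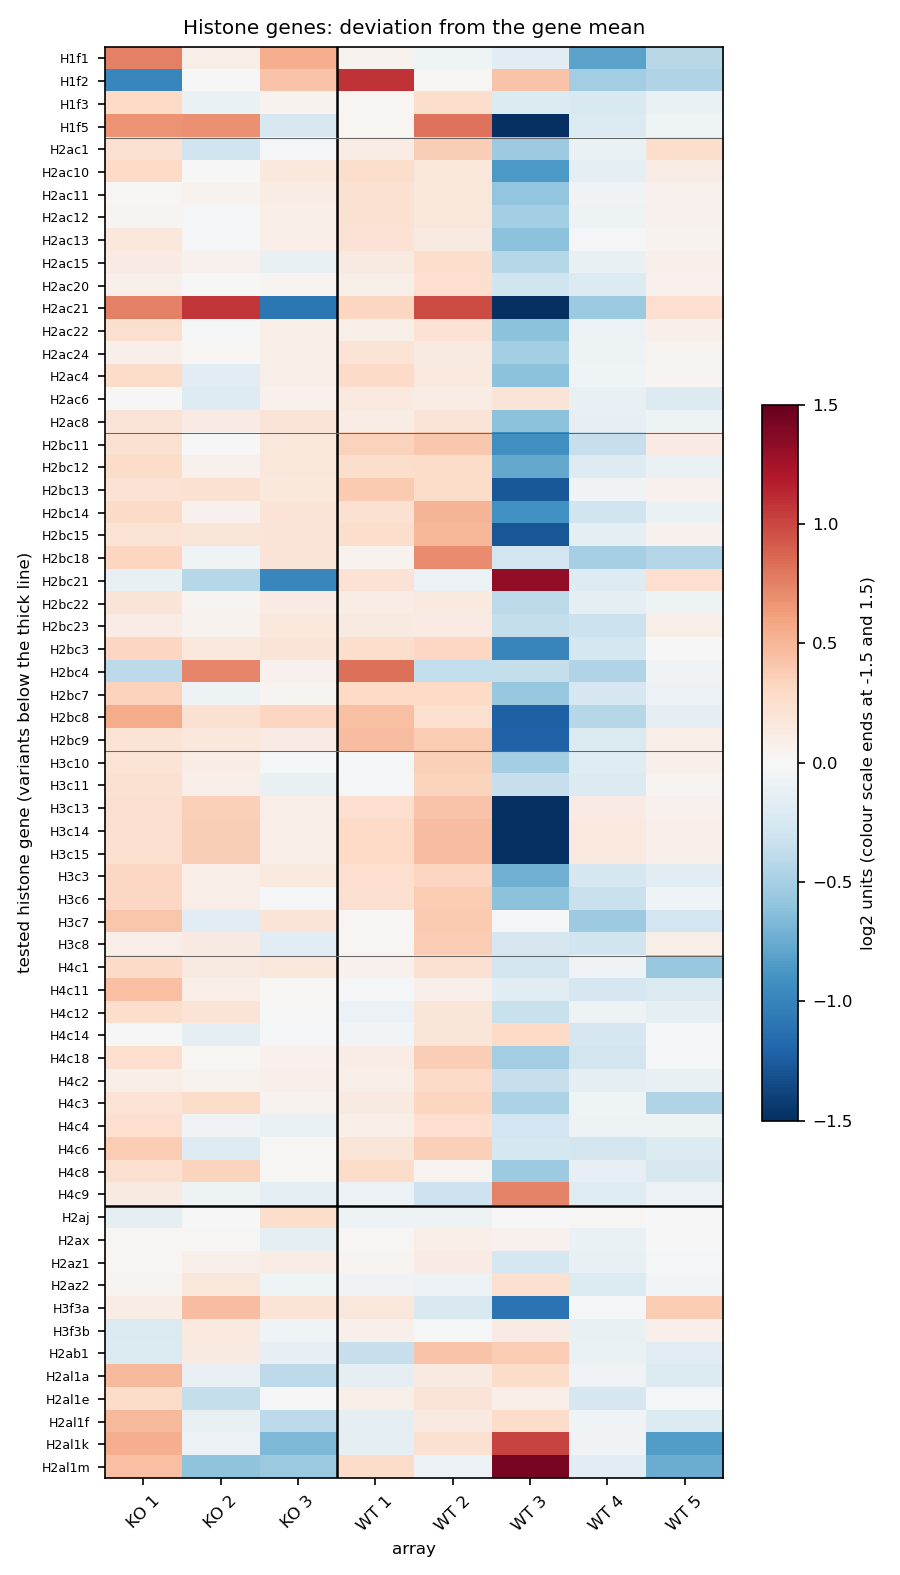
Log2 signal of each of the 63 tested histone genes as its deviation from that gene's mean over the 8 arrays, by array (columns, 3 KO then 5 WT), with replication-dependent genes above the thick horizontal line, parted by thin lines into H1, H2A, H2B, H3 and H4, and variants below it. The column of WT 3 is blue for most replication-dependent genes, with H2bc21 and H4c9 as red exceptions, and the variant rows are mostly pale with H3f3a, H2al1k and H2al1m among the exceptions.

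Linker histones held both the highest difference and some of the most uneven genes. H1f1 (Hist1h1a), which encodes the linker histone H1.1, was 13.91, 13.24 and 13.69 in KO and 13.19, 13.09, 12.98, 12.35 and 12.73 in WT. All 3 KO arrays lay above all 5 WT arrays, though KO array 2 was only just above WT array 1. The difference was 0.74 with a standard error of 0.26, or 1.67-fold, and 0.77 without WT array 3. Its exact two-sided permutation p of 0.0179 is the lowest possible with 56 splits, and limma's adjusted p was 0.998, so the gene did not pass. WT array 4 was the lowest for this gene, and without it the difference was 0.61.

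H1f5 (Hist1h1b), encoding H1.5, was 13.90, 13.91 and 12.98 in KO and 13.25, 14.03, 11.54, 13.01 and 13.15 in WT. The groups overlapped, KO array 3 lay below 4 of the WT arrays, and WT array 3 was the lowest. The difference was 0.60 with a standard error of 0.51 (0.23 without WT array 3). H1f3 (Hist1h1d), encoding H1.3, differed by 0.13 and was within 11.32 to 11.72 in KO and 11.20 to 11.68 in WT.

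H1f2 (Hist1h1c), encoding H1.2, the linker histone known in many tissues also outside S phase, had an uneven profile in both groups. It was 10.63, 11.59 and 12.03 in KO and 12.69, 11.62, 12.03, 11.08 and 11.16 in WT, with KO array 1 lowest and WT array 1 highest. The difference of -0.30 (standard error 0.44) turned to 0.10 without KO array 1 and was -0.06 without WT array 1. H2bc4 (Hist1h2bc), an H2B gene, had 10.00, 11.12 and 10.46 in KO and was likewise highest in WT array 1, at 11.21, where WT arrays 2 to 5 had 10.02, 10.04, 9.93 and 10.33. Its difference of 0.22 turned to -0.08 without KO array 2. WT array 1 also had high megakaryocyte and platelet markers, with a median deviation of 2.52 over the 7 of 9 listed markers that were named in the table. Their mean level was 6.09 to 6.35 in KO and 5.88 to 9.98 in WT, 4 of the 7 lay above the array median on all arrays, and their part in the H1f2 and H2bc4 values was not tested.

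Of the core histones, the 14 tested H2B genes had a median difference of 0.25, with 13 above 0, which was 0.10 (12 above 0) without WT array 3. H2bc8 (Hist1h2bg), with the highest difference among them, was 14.13, 13.80 and 13.89 in KO and 14.02, 13.82, 12.35, 13.14 and 13.43 in WT. WT arrays 1 and 2 were level with KO, and the other WT arrays were lower. The difference was 0.59 with a standard error of 0.37, and 0.34 without WT array 3. H2bc9 (Hist1h2bh) averaged 14.47 ± 0.04 in KO and 14.21 ± 0.68 in WT (SD, n = 3 and 5), and its difference of 0.26 turned to -0.02 without WT array 3. H2bc13 (Hist1h2bl) showed the same single low array: it was 15.69 to 15.76 in KO and 15.49 to 15.93 in 4 WT arrays, with WT array 3 at 14.27. Its difference was 0.32, and 0.03 without that array.

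H2bc21 (Hist2h2be) ran against the other H2B genes and had the lowest difference of all members. Its human counterpart is known to give polyadenylated mRNA in cells that have stopped dividing. It was 8.38, 8.07 and 7.52 in KO and 8.72, 8.41, 9.82, 8.30 and 8.75 in WT. KO arrays 2 and 3 lay below every WT array, KO array 1 lay just above WT array 4, and WT array 3 was the highest. The difference was -0.81 with a standard error of 0.37, an exact two-sided permutation p of 0.0536 and an adjusted p of 0.998 in limma. Without WT array 3 it was -0.55, and without KO array 3 it was -0.58.

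The 13 tested H2A genes had a median difference of 0.10, with 11 above 0, which was -0.01 without WT array 3, with 4 above 0, and -0.01 with array weights. WT array 3 was the lowest of the 8 for 12 of the 13. The exception was H2ac6 (Hist1h2ac), at 10.14, 9.95 and 10.21 in KO and 10.29, 10.25, 10.33, 10.03 and 9.93 in WT, a difference of -0.07 (-0.03 without WT array 3) that turned to 0.0073 without KO array 2. Another 7 H2A genes (H2ac4, H2ac11, H2ac12, H2ac13, H2ac15, H2ac20 and H2ac24) had differences of 0.04 to 0.13 that lay between -0.07 and -0.01 without WT array 3. H2ac13 (Hist1h2ai), for example, averaged 17.77 ± 0.09 in KO and 17.64 ± 0.33 in WT (SD, n = 3 and 5). H2ac21 (Hist2h2ab) spread most of all members: it was 11.97, 12.28 and 10.13 in KO and 11.54, 12.20, 9.47, 10.65 and 11.46 in WT. KO array 3 and WT array 3 were both low, so the spread lay within each genotype. Its difference was 0.40 with a standard error of 0.67, 0.0024 without WT array 3 and -0.0097 without KO array 2. H2ac1 (Hist1h2aa), the testis H2A gene known as TH2A, differed by -0.05, by -0.19 without WT array 3 and by 0.085 without KO array 2.

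The 9 tested H3 genes were all above 0, with a median of 0.24 that was 0.03 without WT array 3, where 6 were above 0. Among the H3 genes, those of the Hist2 cluster, which encode H3.2, were lowest in WT array 3 relative to the other WT arrays. The row shared by H3c14 and H3c15 (Hist2h3c1 and Hist2h3c2) was 16.48, 16.60 and 16.33 in KO and 16.54, 16.70, 14.55, 16.38 and 16.31 in WT. The KO arrays lay inside the range of WT arrays 1, 2, 4 and 5, and WT array 3 was 3.82-fold under the mean of those arrays. The difference of 0.37 turned to -0.013 without WT array 3. H3c13 (Hist2h3b) had the same pattern, with a difference of 0.37 and of 0.015 without WT array 3. H3c8 (Hist1h3g), of the Hist1 cluster, differed by 0.04, by -0.03 without WT array 3 and by -0.04 without WT array 4. Over the 8 tested Hist2 cluster genes the median was 0.31 (-0.01 without WT array 3), and over the 43 of the Hist1 cluster it was 0.19 (0.06 without that array).

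The 11 tested H4 genes had a median of 0.18, with 9 above 0, which was 0.14 (again 9 above 0) without WT array 3, so the H4 median moved least of the 5 families when that array was left out. H4c11 (Hist1h4j) was 10.60, 10.25 and 10.16 in KO and 10.13, 10.23, 9.99, 9.90 and 9.93 in WT. Only WT array 2 lay above the lowest KO array. The difference was 0.30 with a standard error of 0.20, an exact two-sided permutation p of 0.0536 and an adjusted p of 0.998 in limma, and it was 0.29 without WT array 3. H4c1, H4c8, H4c12 and H4c3 differed by 0.32, 0.32, 0.24 and 0.29 (0.28, 0.21, 0.18 and 0.20 without WT array 3), with overlapping groups in each. H4c4 and H4c6 differed by 0.05 and 0.11 (-0.02 and 0.06 without WT array 3), and both were below 0 without KO array 1 (-0.06 and -0.05). H4c9 (Hist1h4i) and H4c14 (Hist2h4) were highest in WT array 3, with differences of -0.04 and -0.09, the second of which was -0.02 without it. On that array H4c9 stood at 11.50, while WT arrays 1, 2, 4 and 5 ran from 10.45 to 10.68, and its difference without it was 0.14.

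**Figure D2:**
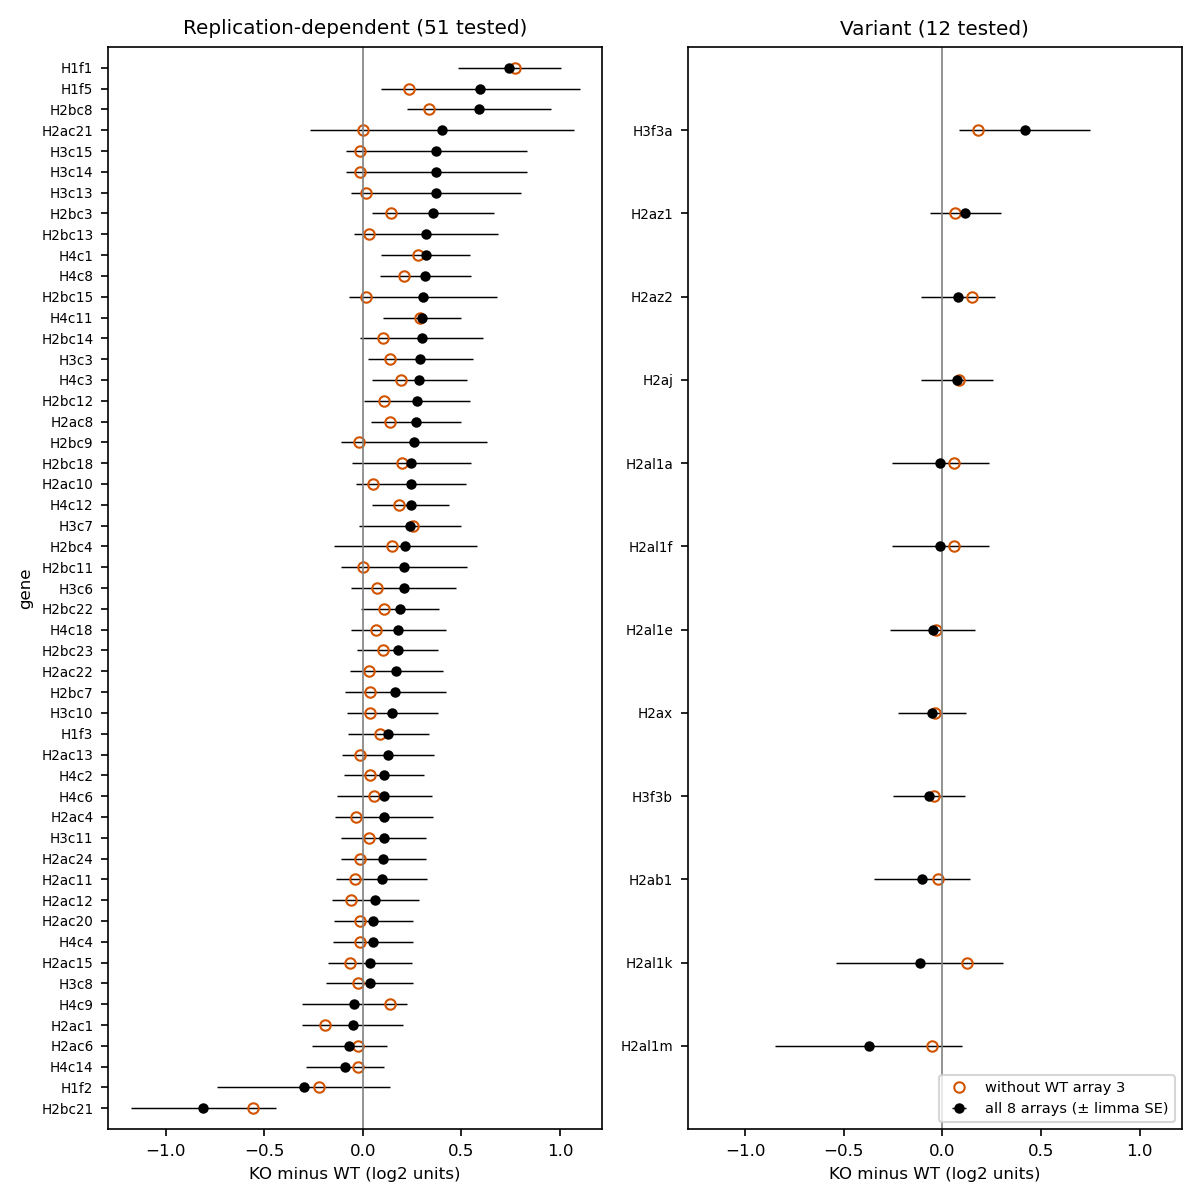
KO minus WT difference in log2 units for each tested gene, replication-dependent on the left and variant on the right, with all 8 arrays (filled points, bars are ± 1 limma standard error) and without WT array 3 (open circles). Most filled points on the left lie above 0 and most open circles lie closer to 0, while H1f1 keeps its place at 0.74 and 0.77.

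The variants that somatic cells use had the lowest median SD among the WT arrays of the groups described here, with H3f3a as the uneven one. Of the 12 tested variants, 6 are somatic (H2aj, H2ax, H2az1, H2az2, H3f3a and H3f3b) and 6 belong to the H2ab and H2al types known from testis, whose values, 5.01 to 7.97, lay near the array medians. The 12 had a median difference of -0.03, which turned to 0.06 without WT array 3 and to 0.02 with quantile normalization. The 6 somatic variants had a median of 0.08, and of 0.07 without WT array 3. Their median SD among the WT arrays was 0.12, and 0.09 without WT array 3.

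H2az1 and H2az2 encode the 2 forms of H2A.Z, which marks promoters and is laid down by the SRCAP and p400 remodellers. H2az1 was 17.00, 17.05 and 17.08 in KO and 17.01, 17.09, 16.71, 16.86 and 16.96 in WT, a difference of 0.12 with a standard error of 0.18 (0.06 without WT array 3). H2az2 was 14.44, 14.56 and 14.33 in KO and 14.35, 14.30, 14.64, 14.19 and 14.35 in WT, a difference of 0.08 (0.15 without WT array 3). In both genes the groups overlapped, and WT array 3 was the lowest for H2az1 but the highest for H2az2. H2ax encodes H2A.X, which is phosphorylated at DNA breaks, and it was 16.36 to 16.51 in KO and 16.39 to 16.60 in WT, a difference of -0.05. H2aj, whose human product accumulates in senescent cells, was 15.20 to 15.60 in KO and 15.25 to 15.35 in WT, and its difference of 0.075 turned to -0.036 without KO array 3.

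H3f3a and H3f3b encode the same protein, H3.3, and parted on WT array 3. H3f3a was 14.68, 15.03 and 14.77 in KO and 14.74, 14.34, 13.46, 14.55 and 14.95 in WT, a difference of 0.42 with a standard error of 0.33, and 0.18 without WT array 3. H3f3b was 15.13, 15.50 and 15.29 in KO and 15.42, 15.32, 15.47, 15.23 and 15.42 in WT, a difference of -0.07 (-0.04 without WT array 3) that turned to 0.021 without KO array 1. On WT array 3 H3f3a was at its lowest, while H3f3b was inside the range of the KO arrays.

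Among the testis types, H2al1m and H2al1k were both highest in WT array 3. H2al1m was 6.996, 5.95 and 5.99 in KO and 6.82, 6.46, 7.97, 6.37 and 5.80 in WT, a difference of -0.37 that was -0.05 without WT array 3. H2al1k differed by -0.12, and by 0.13 without that array. H2ab1 differed by -0.11 (-0.02 without WT array 3), H2al1e by -0.05 (-0.03) and the row shared by H2al1a and H2al1f by -0.01, all with overlapping groups, and the last turned to 0.06 without WT array 3 and to 0.053 with quantile normalization.

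Set against each other, the replication-dependent median lay 0.24 above the variant median. Against the somatic variants alone the gap was 0.13, and without WT array 3 those 2 medians were 0.04 and 0.07. Against all 12 variants the gap without WT array 3 was -0.02. With H2ax counted as replication-dependent, the gap to the other variants over all 8 arrays was 0.21. Per array, the replication-dependent minus the variant median deviation was 0.16, 0.05 and 0.18 in KO arrays 1 to 3 and 0.19, 0.15, -0.69, -0.09 and 0.02 in WT arrays 1 to 5. WT array 3 was the one array on which the 2 classes came far apart. Across the 8 arrays, each of the 51 replication-dependent genes was correlated with the mean of the others. The median Pearson r was 0.89, with 35 of them over 0.8. Against the same mean, the median over the 12 variants, testis types included, was -0.18, with 8 below 0. The variants were not alike: r was 0.93 for H2az1 and 0.68 for H3f3a, and 0.78 and -0.24 without WT array 3. Over the 7 arrays without WT array 3 the medians were 0.79 and 0.46. These r values describe 8 and 7 arrays and have no test, since the genes share arrays and may share probes. The same median and counts over all tested genes are not given here, so the r values have no background.

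**Figure D3:**
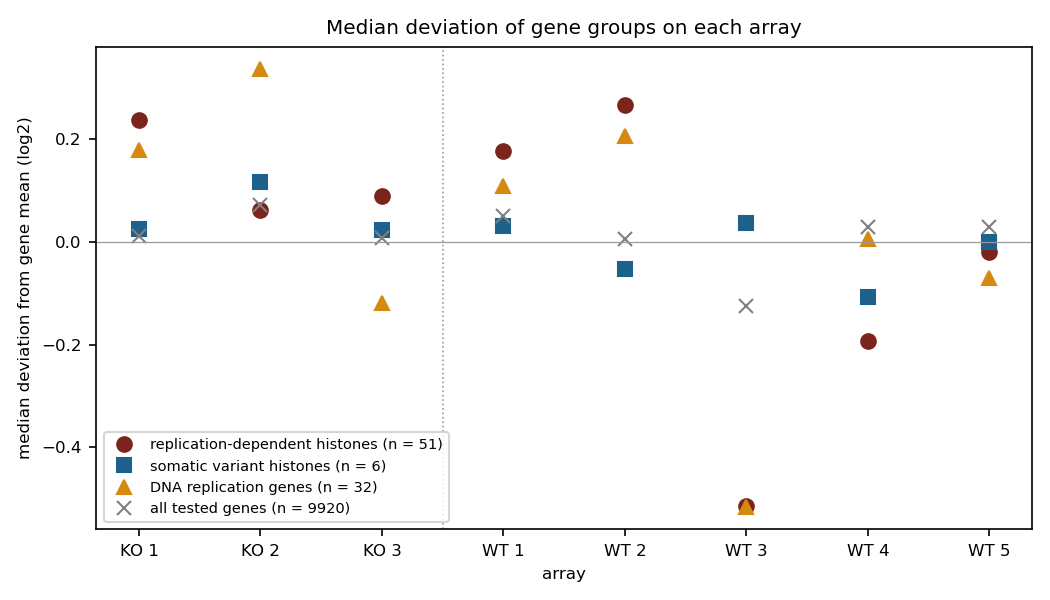
Median deviation from the gene mean, in log2 units, on each array (3 KO, then 5 WT) for the 51 replication-dependent histones, the 6 somatic variants, 32 genes of DNA replication and all 9920 tested genes. The replication-dependent histones and the replication genes both sit near -0.5 on WT 3, where the somatic variants stay at 0.04. The G2/M genes, not drawn, were at -0.60 on that array.

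Factors that make and mature histone mRNA were examined as a list of 27 names, 22 of them tested. None passed in either direction. The median difference was 0.16, with 19 above 0, and 0.07 without WT array 3, with 15 above 0. Casp8ap2, which encodes FLASH, a protein that brings the cleavage machinery to the U7 particle on histone pre-mRNA, was 13.17, 13.03 and 13.02 in KO and 12.27, 12.78, 11.80, 12.65 and 11.41 in WT. All KO arrays lay above all WT arrays. It was the only 1 of the 22 without overlap, beside 3.09% of all genes. The difference was 0.89 with a standard error of 0.33, and 0.79 without WT array 3. The permutation test (exact, two-sided) gave p = 0.0536 and limma an adjusted p of 0.998, so it did not pass. Without WT array 5, the lowest, it was 0.70.

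Slbp, the protein that binds the stem-loop of histone mRNA, was 13.60, 14.02 and 13.42 in KO and 13.35, 13.92, 12.78, 13.78 and 13.32 in WT, a difference of 0.25 that was 0.09 without WT array 3. Npat, the coactivator through which cyclin E and CDK2 switch on histone transcription, was 12.57, 13.07 and 12.19 in KO and 12.85, 12.70, 10.22, 12.85 and 13.04 in WT. Its difference of 0.28 turned to -0.25 without WT array 3, which was far below the rest. Lsm1, of the cytoplasmic decay complex, differed by 1.01. It was 7.17, 7.78 and 6.995 in KO and 7.67, 6.01, 5.50, 5.65 and 6.70 in WT. Array medians ran from 5.26 to 5.51, so some of its WT values were dim. Cpsf2 and Lsm10, of the cleavage complex and the U7 particle, differed by 0.45 (0.25 without WT array 3) and 0.47. Ccne1, encoding cyclin E1, differed by 0.31. In these 4 genes the groups overlapped.

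Histone chaperones and exchange factors were listed as 46 names, 41 tested. None passed, and the median difference was 0.08, with 25 above 0 and 16 below, and 0.03 without WT array 3, with 27 above 0. The 5 with the smallest p were Ttll12 at 0.48, Tspyl1 at -0.27, Mis18a, needed for loading the centromeric H3 variant, at 0.34, Cabin1, a subunit of the HIRA complex that deposits H3.3, at -0.28, and Nasp at 0.31. Nasp, a chaperone of H1 and of H3 with H4, was 10.44, 10.38 and 10.33 in KO and 10.46, 10.499, 9.43, 9.89 and 10.08 in WT, and its difference was 0.15 without WT array 3. It was also the non-histone gene whose profile over the 8 arrays was most like the mean of the replication-dependent histones, with a Pearson r of 0.99, and 0.97 over the 7 arrays without WT array 3. The next were N4bp2l2, Atf2, Ikzf5 and Arl14ep, with r of 0.99, 0.99, 0.98 and 0.98 over 8 arrays, and 0.97, 0.95, 0.94 and 0.94 over 7. These genes were picked as the highest of all tested non-histone genes, so their r is a description.

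**Figure D4:**
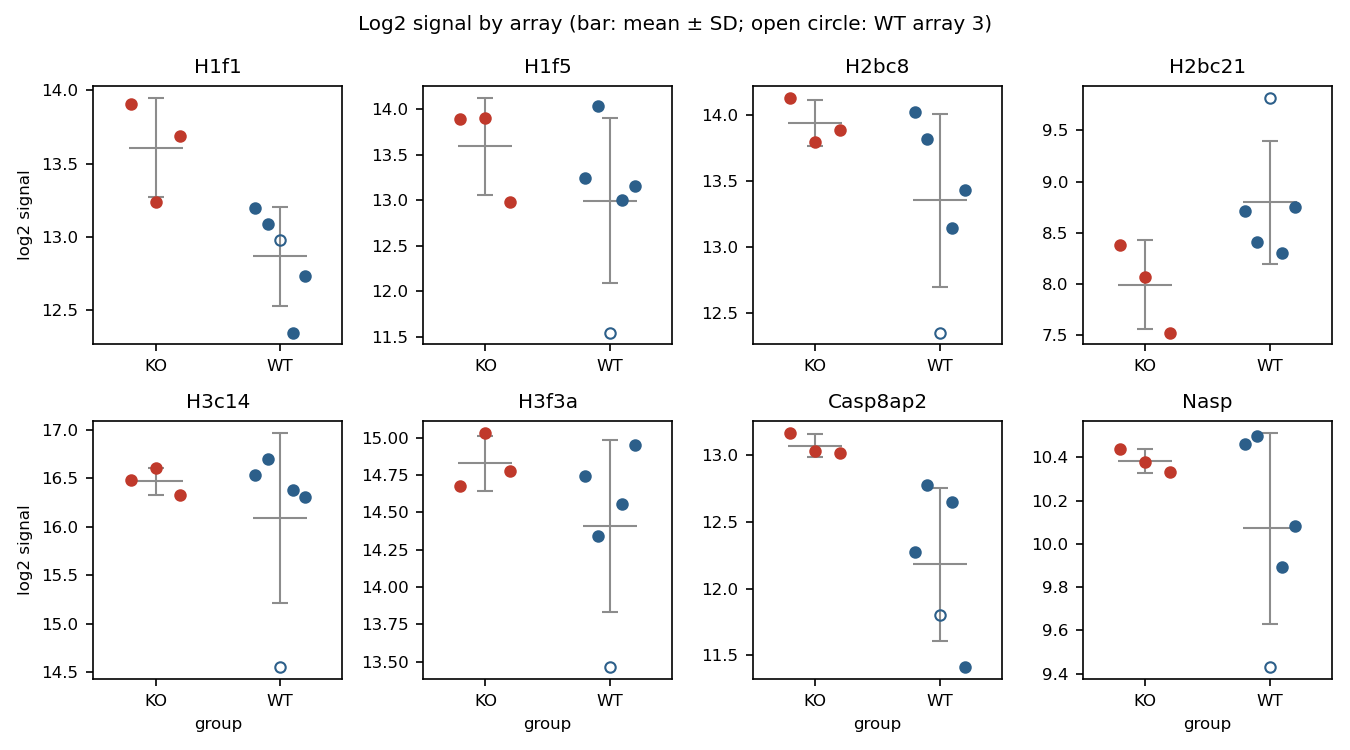
Log2 signal on each array for 6 histone genes and the factors Casp8ap2 and Nasp, KO (red, 3 arrays) left of WT (blue, 5 arrays), with mean ± SD as grey bars, WT array 3 as an open circle, and a separate vertical axis for each gene. KO and WT do not overlap for H1f1 and Casp8ap2, and the open circle is the lowest WT point for H1f5, H2bc8, H3c14, H3f3a and Nasp and the highest for H2bc21.

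Genes of DNA replication, whose S phase use goes with that of the cluster histones, were read beside them. This list is not separate from the others. Slbp, Ccne1 and Ccne2 are also among the histone mRNA factors, and Mcm2, Mcm3, Chaf1a and Chaf1b among the chaperones. Of 34 listed, 32 were tested and 0 passed, with a median difference of 0.24 (26 above 0), which was 0.10 without WT array 3 and 0.05 without KO array 2. Their median deviations were 0.18, 0.34 and -0.12 in KO arrays 1 to 3 and 0.11, 0.21, -0.52, 0.005 and -0.07 in WT arrays 1 to 5. On WT array 3 they were as low as the replication-dependent histones, while on KO arrays 2 and 3 they parted from them, at 0.34 against 0.06 and at -0.12 against 0.09. The 5 with the smallest p were Gins1, a subunit of the replicative helicase, at 1.00, Cdc6, which licenses origins, at 0.51, Orc6 at 0.43, Ccne1 at 0.31 and Gins4 at 0.30. Without WT array 3, Orc6 was at 0.25 and Gins4 at 0.18. Of 19 listed G2/M genes, 18 were tested and 0 passed, with a median of 0.17, and of 0.05 without WT array 3. The low values on WT array 3 were not particular to S phase genes. There the median deviation was -0.60 for the G2/M genes and -0.53 for the histone mRNA factors. It was -0.26 for the chaperones and -0.13 for all tested genes. Cenpf, Kif20a, Kif11, Aurkb and Aurka, which act in mitosis, differed by 0.74, 0.53, 0.52, 0.36 and 0.33. Without WT array 3 the same genes differed by 0.54, 0.24, 0.28, 0.18 and 0.19. The KO and WT arrays were apart for 1 of the 32 replication genes, Gins1, and 1 of the 18 G2/M genes, Cenpf. They were apart for 3.09% of all genes. The limma p of Gins1 and of Cenpf did not pass after adjustment (0.998 for each).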

How the data were processed

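The deposited table holds log2 values for 8 arrays in 28846 rows, 22206 of them transcripts. What the authors used for background correction, normalization and summarising is not stated in the labels or headers, and the log2 unit is read from the range. The annotation given for the rows named 19572 of them with 1 symbol. It may describe a different Affymetrix mouse platform from the one that the design text names. All 84 histone genes were found in a RefSeq gene table (GRCm38.p6), which gave older names. Promoter sequences are RefSeq's, with 78 of the 84 matched.

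KO was compared with WT by limma 3.58.1 in R 4.3.3, with lmFit and eBayes and two-sided p-values, on the deposited values without further normalization, over 1 row per symbol (highest mean), with Benjamini-Hochberg adjustment over 9920 genes. For single genes, exact permutation p-values (two-sided, 56 splits) were computed for all 9920, and the smallest adjusted one was 1. Scripts were tested on simulated data. The labels do not say whether replicate numbers pair the arrays. Between KO and WT arrays of the same number, deviations from the group means had correlations of 0.02, -0.02 and 0.14. With so few pairs these values cannot exclude pairing. The number of arrays limits the precision.

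The members, lists and tests were chosen with earlier results of these data known. Genes named are the 8 of each class with the smallest p, those without overlap, those with the largest SD in WT (3 a class), all H1 genes and variants tested, genes that change direction without 1 array, the 5 of each list with the smallest p, the 5 other genes most like the mean replication-dependent profile, and Slbp, Npat, Casp8ap2 and Pik3ca. H4c14, H3c13 and H2bc13 were chosen after their values were seen. Alternatives were other filters (none, or the 60th percentile on 5 arrays), a low-value floor (25th percentile), quantile normalization, median centring, array weights, a trended robust eBayes, a block for the replicate number, other row choices, other class borders and leaving out each array. Figures used matplotlib 3.10.9 in Python 3.11.15.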

Additional observations from a re-analysis of the deposited data

Results flagged for a closer look

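In the 5 WT arrays, 73 values (named genes and class medians) were screened for 1 array standing off, measured as its distance to the nearest array divided by the whole range, with 0.71 as the critical value. Chance gives about 1 in 20 for values picked blindly, a rate that cannot be applied here, since many of these genes were named for their spread or for a change without 1 array, and H2bc13 and H3c13 after their values were seen. The screen found 9, of which 8 came through WT array 3 and H3c14 and H3c15 are 1 measurement. WT array 3 was far below the other WT arrays for H3c13 (ratio 0.821, at 14.59 where the others were 16.22 to 16.58), for the row shared by H3c14 and H3c15 (0.820, at 14.55 where the others were 16.31 to 16.70) and for H2bc13 (0.734, at 14.27). It was far above them for H4c9 (0.783, at 11.50 where the others were 10.45 to 10.68). Among factors and other genes it was far below for Npat (0.880, at 10.22), Pik3ca (0.917, at 8.41) and Kif20a (0.724, at 9.51). WT array 5 was far above for Cabin1 (0.758, at 11.56 where the others were 10.92 to 11.08).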

How the results depend on the processing

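The counts of called genes, 0 over all genes and 0 among histones, were 0 under all 18 alternatives in limma, with 217 to 592 genes and 0 to 2 histone genes at an unadjusted p under 0.05. The replicate block gave 0 calls, a replication-dependent median of 0.15 and a Pik3ca difference of -0.007. Leaving out 1 array at a time, the replication-dependent median ranged from 0.04 to 0.29, the variant median from -0.06 to 0.06, their gap from -0.02 to 0.30 and Pik3ca from -0.39 to 0.042. The lowest value of that gap came without WT array 3. Array weights brought the replication-dependent median to 0.07 and the gap to 0.005, and the stricter filter brought the gap to 0.13. With array weights the direction turned for H2al1a and H2al1f (0.093), H2al1k (0.14), H4c9 (0.12), Npat (-0.17), H2ac11 (-0.035), H2ac12 (-0.052), H2ac13 (-0.00182), H2ac15 (-0.043), H2ac20 (-0.0019), H2ac24 (-0.0056) and H2ac4 (-0.021), with the replicate block for H3c8 (-0.026) and H4c6 (-0.022), and with quantile normalization for H2al1a and H2al1f (0.053). With 1 array left out, differences that changed direction ranged from -0.61 to 0.095 for H1f2, -0.19 to 0.085 for H2ac1, -0.0097 to 1.07 for H2ac21, -0.13 to 0.0073 for H2ac6, -0.036 to 0.17 for H2aj, -0.26 to 0.18 for H2al1a and H2al1f, -0.20 to 0.11 for H2al1e, -0.42 to 0.18 for H2al1k, -0.081 to 0.00024 for H2ax, -0.081 to 0.48 for H2bc4, -0.013 to 0.52 for H3c14 and H3c15, -0.16 to 0.021 for H3f3b, -0.13 to 0.14 for H4c9, -0.041 to 0.16 for H2ac11, -0.058 to 0.13 for H2ac12, -0.015 to 0.19 for H2ac13, -0.066 to 0.11 for H2ac15, -0.015 to 0.12 for H2ac20, -0.012 to 0.17 for H2ac24, -0.036 to 0.22 for H2ac4, -0.019 to 0.40 for H2bc9, -0.036 to 0.13 for H3c8, -0.056 to 0.12 for H4c4, -0.047 to 0.24 for H4c6, -0.25 to 0.49 for Npat and -0.0070 to 0.28 for Atf2. In all, 26 of the 63 tested histone genes changed direction with 1 array left out, 19 of them replication-dependent. The share of all tested genes that did so is not given here, so the count does not set histones apart. The causes were not tested. Saturation and background of single probes were not measured here, and limit the brightest and dimmest rows.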
